A study of Mus musculus with 12 samples.

Results

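Lactating mammary glands with and without JNK were compared by RNA sequencing. The comparison holds 6 of the 12 libraries of the series, 3 from JNK WT dams and 3 from JNK KO dams taken on involution day 0, that is, at the removal of pups that had nursed for 9 days. The libraries were chosen by their genotype and day labels, and all gene rows of the table were used. JNK WT dams (Wap-Cre-/+) and JNK KO dams (Wap-Cre-/+ with LoxP/LoxP alleles of both Mapk8 and Mapk9) were of the strain C57BL/6, were first bred at 10 to 12 weeks of age and raised litters of 6 to 8 pups. Every dam therefore carried the Cre transgene, and the groups differ in the floxed alleles. The other 6 libraries come from the same genotypes 3 days after weaning and enter the filter and the estimate of the spread, and their levels are set beside those of day 0. RNA came from mammary glands 2 to 5, the study describes 3 mice per condition, and day 0 libraries carry the numbers 1 to 3 of their columns.

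JNK1 and JNK2, encoded by Mapk8 and Mapk9, are stress-activated protein kinases that phosphorylate JUN and related members of the AP1 group of transcription factors. The lactating gland is built of alveoli whose luminal cells synthesise caseins, whey proteins, lactose and fat, surrounded by contractile myoepithelial cells and a stroma of adipocytes, fibroblasts, vessels and leukocytes. The Wap promoter, which drives Cre here, is active in luminal cells from late pregnancy, so that the stroma of a JNK KO gland keeps both genes. In such whole glands fewer cells of a type and less RNA per cell cannot be told apart.

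Levels are given as FPKM, fragments normalised to the length of the gene model and to the total of the library, as the authors computed them. They carry no read counts, so the depth behind single libraries is unknown and an exact 0 may be an estimate that failed. Differences are JNK KO minus JNK WT on the log2(FPKM + 0.1) scale, which understates the change of weakly expressed genes, with the standard error of a limma fit over all 12 libraries. A gene is called where its p, adjusted over all 14512 genes tested by the Benjamini-Hochberg method, is under 0.05. The median day 0 difference over all genes was 0.18 on this scale and 0.01 after median ratio scaling, and that of day 3 was -0.48 before such scaling. Single differences are to be read against the shift of their day.

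The libraries were not equally alike, and the account starts with them. JNK WT library 1 correlated with its own group at r = 0.851 to 0.861 across genes, against 0.950 between JNK WT libraries 2 and 3 and 0.923 to 0.951 among the JNK KO libraries. It held 8641 gene models at 0.5 FPKM or more, where the other 5 libraries held 10420 to 10871. Its deviation followed the length of the gene models. Relative to the mean of libraries 2 and 3, its median log2 difference was 0.36 for models with under 500 bases of exon, 0.53 for 500 to 1000, 0.21 for 1000 to 2000, -0.37 for 2000 to 4000, -0.97 for 4000 to 8000 and -1.48 above 8000 bases. No JNK KO library departed from the others of its group by more than 0.16 in any of these length classes. Long messages such as Fasn, the fatty acid synthase of milk fat production, stood at 23.2 FPKM in JNK WT library 1 and at 426, 544, 522, 611 and 439 FPKM in the remaining libraries. Polr2a, the large subunit of RNA polymerase II, was at 0.158 FPKM there and at 2.72 to 4.34 FPKM in the other 5.

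**Figure D1:**
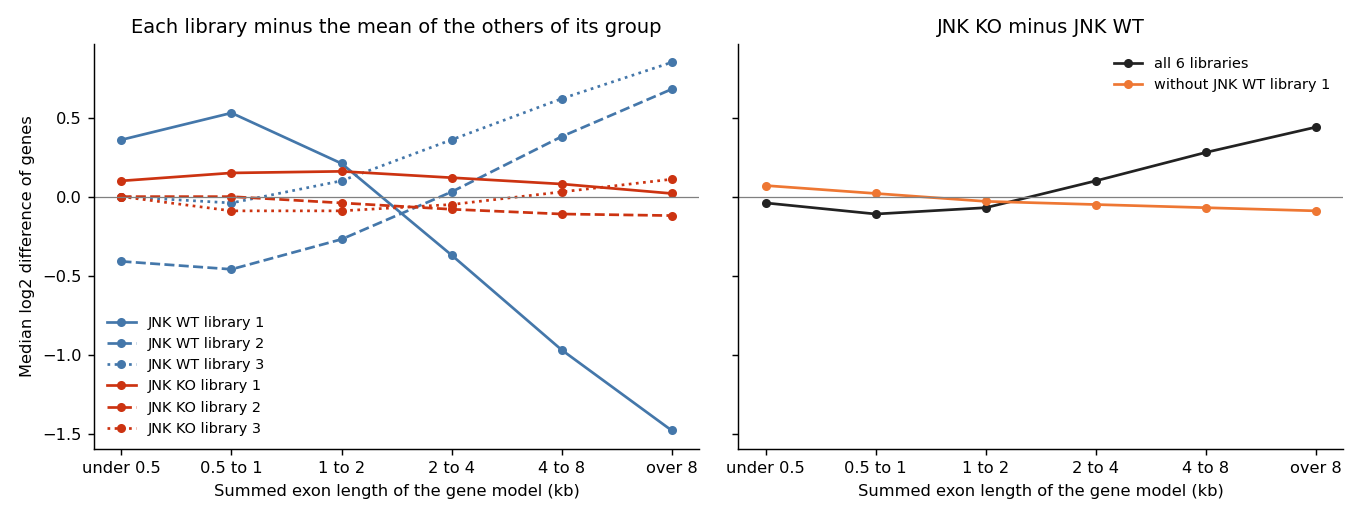
Median log2 difference of the tested genes (y axis) by summed exon length of the gene model in kilobases (x axis, 6 classes). On the left each day 0 library is set against the mean of the other libraries of its group, and only JNK WT library 1 falls steeply with length, from 0.53 to -1.48, while libraries 2 and 3 of JNK WT rise against a mean that includes it. On the right the JNK KO minus JNK WT difference runs from -0.11 to 0.44 with all 6 libraries and from 0.07 to -0.09 without JNK WT library 1.

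The comparison of the groups took up this dependence on length. Over all 6 libraries the median difference rose from -0.11 for models of 500 to 1000 bases to 0.44 above 8000 bases. Without JNK WT library 1 it ran from 0.07 under 500 bases to -0.09 above 8000 bases, and the median of all genes was -0.06. Each list median printed below is therefore given with and without that library. For some lists no median is printed.

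JNK KO library 1 stood apart in acute phase genes. The 24 genes of a list of STAT3 and acute phase genes summed to 6359 FPKM in it, to 1159 and 509 FPKM in JNK KO libraries 2 and 3, and to 340.5, 599 and 741 FPKM in the JNK WT libraries. Skeletal muscle genes varied in both groups. The 13 muscle markers summed to 1303, 250.3 and 11.9 FPKM with JNK WT and to 56.2, 565 and 1761 FPKM with JNK KO, so that the highest sums were those of JNK WT library 1 and JNK KO library 3. Of 10 neutrophil markers, whose sum was 5.68 FPKM in JNK KO library 1 and 0.254 to 1.21 FPKM elsewhere, Ly6g was listed at 0 in all 6 libraries. Luminal markers summed to 206, 411 and 407 FPKM with JNK WT and to 366, 320.2 and 330 FPKM with JNK KO. Most of each sum came from Elf5, which encodes a transcription factor. It was at 141, 284 and 271 FPKM with JNK WT and at 241, 239.4 and 239.3 FPKM with JNK KO.

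**Figure D2:**
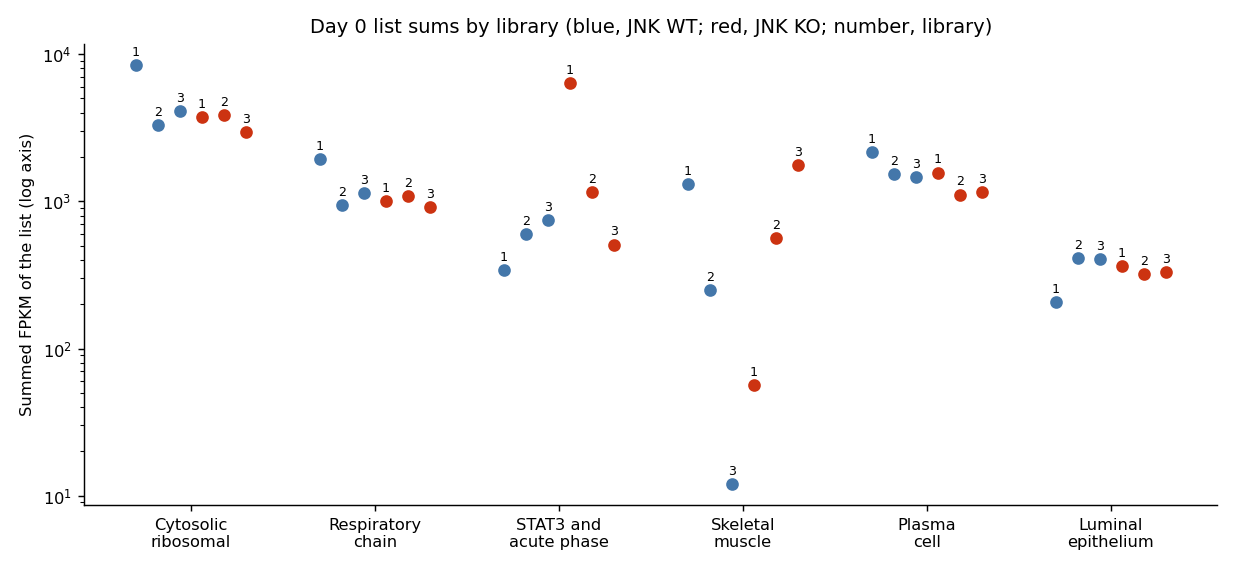
Summed FPKM of 6 gene lists (x axis) in each day 0 library on a log axis, blue for JNK WT and red for JNK KO, with the library number above each point. JNK WT library 1 is the highest for ribosomal proteins (8441 FPKM), JNK KO library 1 for acute phase genes (6359 FPKM) and JNK KO library 3 for muscle genes (1761 FPKM).

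Mapk8 and Mapk9, the targeted genes, were measured first as a check of the labels. Mapk8 (chromosome 14, 33377898 to 33447158 of GRCm38) was at 1.95, 2.33 and 2.65 FPKM in JNK WT glands, against 0.986, 0.965 and 2.78 FPKM in JNK KO glands. Libraries 1 and 2 of JNK KO lay below every JNK WT library, and the library labelled JNK KO 3 lay above all of them. The log2 difference was -0.68 (standard error 0.44), with an exact two-sided permutation p of 0.4, where 3 against 3 libraries allow no p under 0.1. Without the library labelled JNK KO 3 the difference was -1.15.

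Mapk9 (chromosome 11, 49846751 to 49886421) was at 2.48, 9.04 and 10.2 FPKM in JNK WT and at 4.86, 4.33 and 8.78 FPKM in JNK KO glands. The groups overlapped, with the lowest value in JNK WT library 1 and a level in the library labelled JNK KO 3 that was close to those of JNK WT libraries 2 and 3. The difference was -0.10 (standard error 0.49, exact permutation p = 0.8). It was -1.05 without JNK WT library 1 and the library labelled JNK KO 3, -0.74 without JNK WT library 1, 0.17 without JNK WT library 2, 0.26 without JNK WT library 3, 0.01 without JNK KO library 1 and 0.09 without JNK KO library 2, so that its direction turned with single libraries. The values of this check do not set the library labelled JNK KO 3 apart from the JNK WT libraries, and that library also held the highest sum of muscle genes, whose part in the result was not tested. FPKM cover the whole gene model, so that how much of each value comes from the deleted segment is not known. On day 3, Mapk8 was at 6.57 to 7.90 FPKM in JNK WT and at 1.25 to 3.57 FPKM in JNK KO glands without overlap. On that day 43.9% of all genes tested had every JNK KO library below every JNK WT library.

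Of 14512 genes tested, 2 were called on day 0 (0.0138%). Pttg1, which encodes the anaphase inhibitor securin, was lower in JNK KO glands, and Gm25596, a small nuclear RNA gene model that passed the filter only through the JNK KO libraries of day 0, was higher, which makes 0.00689% of genes in each direction. Both also passed the stricter threshold of an adjusted p under 0.01 with an absolute log2 difference above 1. A further 448 genes had an unadjusted p under 0.05, which makes 450 in all (3.10% of the genes tested), of which 239 were higher (1.65%) and 211 lower (1.45%). In simulated data with these spreads and 14512 genes, the fit called 13.6% of genes changed by a log2 of 1, 79.1% of those changed by 2 and 85.1% of those changed by 3. Most changes by a log2 of 1 were thus not called in that setting. Only genes with a mean log2(FPKM + 0.1) above 1 were changed in it, and each value was drawn independently. Weaker genes and a departure of a whole library, such as that of JNK WT library 1, were not simulated, so these shares may not hold for them.

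**Figure D3:**
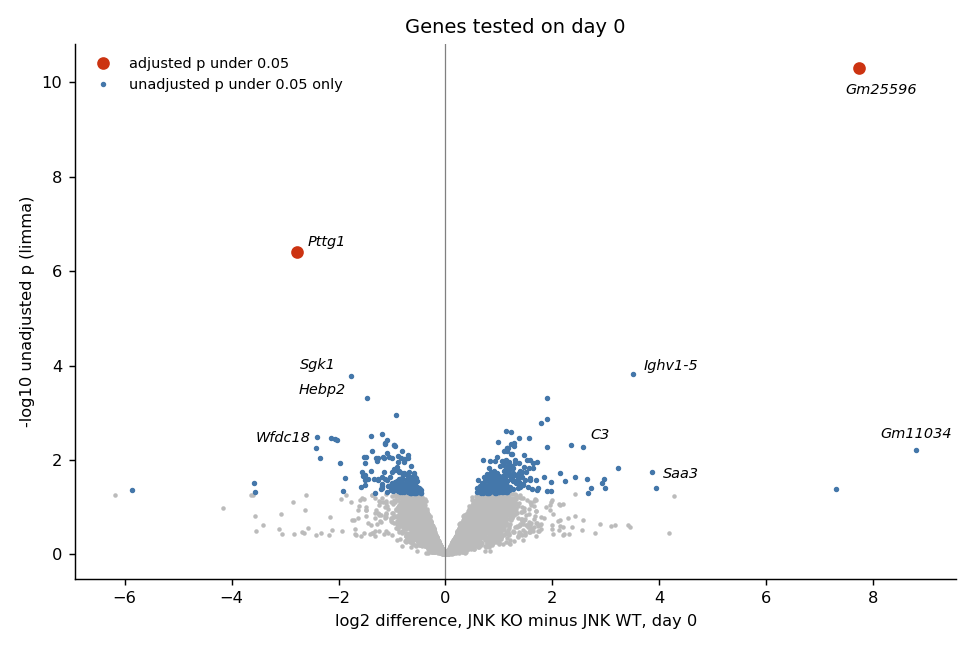
Log2 difference between JNK KO and JNK WT on day 0 (x axis) and -log10 of the unadjusted limma p (y axis), 1 point per gene for 14512 genes. The 2 called genes, Pttg1 at -2.78 and Gm25596 at 7.74, are red, and the 448 other genes with an unadjusted p under 0.05 are blue.

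Pttg1 (chromosome 11, 43420250 to 43426251, minus strand) was at 5.74, 3.40 and 2.80 FPKM in JNK WT and at 0.520, 0.423 and 0.467 FPKM in JNK KO glands. Every JNK KO library, the library labelled JNK KO 3 included, lay below every JNK WT library. The mean fell from 3.98 ± 1.55 to 0.470 ± 0.0484 FPKM (SD, n = 3 each), a ratio of 8.47, with a log2 difference of -2.78 (standard error 0.28, limma adjusted p = 0.00281). In the day 3 libraries, which entered the shared spread but not the day 0 difference, it was at 30.7, 33.3 and 30.2 FPKM in JNK WT and at 4.24, 3.36 and 3.28 FPKM in JNK KO glands. The groups again did not overlap, where 43.9% of all genes had every JNK KO library below on day 3. The difference was -3.09 (limma adjusted p = 0.00177), and the differences on the 2 days differed by -0.31 (adjusted p = 0.616). With a constant of 1 in place of 0.1 the day 0 difference was -1.72 and still passed (adjusted p = 0.0308). The call ended under median ratio scaling, where the difference was -3.11 (adjusted p = 0.063), and in a fit of the day 0 libraries alone (adjusted p = 0.724).

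Pttg1 lies 6.43 Mb from Mapk9, which the JNK KO dams carry as a floxed allele. Among the 170 tested genes within 10 Mb of Mapk9 it was the only called gene, and 7 had an unadjusted p under 0.05 (4.12%, against 3.10% of all genes). The other 6 had higher means in JNK KO glands, none was called, and all but Zfp39 had groups that overlapped. Those with the smallest p were the small RNA model Gm24157, Zfp39, which encodes a zinc finger protein, Canx, which encodes the endoplasmic reticulum chaperone calnexin, Slu7, a splicing factor, and Ltc4s, leukotriene C4 synthase, with differences from 0.79 to 1.38, of which those of Slu7 and Canx went from 1.38 and 0.88 to 0.56 and 0.41 without JNK WT library 1. Of the 92 genes within 10 Mb of Mapk8 none was called and 6 had an unadjusted p under 0.05 (6.52%, against 3.10% of all genes). Among these were Nt5dc2, Wnt5a, a secreted ligand, and Dph3. The loss of the kinase and a difference in the DNA linked to the floxed allele cannot be told apart by position.

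The promoter of Pttg1 is printed because it belongs to the called protein-coding gene, and that of Sgk1 because it holds a rare motif. The windows reach from 250 bases before to 50 bases after a RefSeq start site of GRCm38.p6, 5′ to 3′ on the strand of the gene, with motif matches in capitals.
Pttg1, chr11:43425932-43426231, minus strand: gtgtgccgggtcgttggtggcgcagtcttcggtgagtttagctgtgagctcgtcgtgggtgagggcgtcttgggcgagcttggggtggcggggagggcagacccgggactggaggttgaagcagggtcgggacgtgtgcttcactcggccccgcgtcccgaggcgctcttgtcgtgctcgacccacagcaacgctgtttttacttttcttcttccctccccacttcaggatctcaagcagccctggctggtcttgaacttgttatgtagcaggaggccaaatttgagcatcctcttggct
Sgk1, chr10:21993640-21993939, plus strand: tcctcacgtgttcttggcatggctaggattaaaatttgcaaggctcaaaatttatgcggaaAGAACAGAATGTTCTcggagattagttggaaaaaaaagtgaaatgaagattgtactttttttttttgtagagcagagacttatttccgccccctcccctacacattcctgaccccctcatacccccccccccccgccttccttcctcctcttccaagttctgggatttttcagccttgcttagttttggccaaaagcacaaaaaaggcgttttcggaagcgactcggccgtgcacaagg

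Both strands were searched for the AP1 motif TGANTCA, the cAMP response element TGACGTCA, the STAT motif TTCNNNGAA, the CCAAT box and the glucocorticoid response element, AGAACA and TGTTCT held 3 bases apart. These occur in 7.81%, 1.79%, 8.30%, 37.4% and 0.00913% of the 32851 RefSeq windows of mouse genes. The Pttg1 window holds none of the 5. Sgk1, whose gene model spans 6 RefSeq start sites, has the glucocorticoid element in the window printed, from base 62 to base 76, its first base at -189 from the start site. Only 3 of the 32851 windows hold these letters. Its other windows hold 1 STAT motif and 3 CCAAT boxes, and none of the 6 holds the AP1 motif. A match is a run of letters and says nothing about binding in these glands.

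Sgk1, a serine/threonine kinase that is induced by glucocorticoids and regulates ion transport, had the next smallest p among the genes that were lower. Its levels were 62.4, 120.2 and 120.2 FPKM in JNK WT and 27.9, 25.3 and 31.7 FPKM in JNK KO glands. The groups did not overlap, and the lowest JNK WT value was that of library 1. The ratio of the means was 3.57 and the log2 difference -1.78 (standard error 0.33), which did not pass (limma adjusted p = 0.616). It passed under median ratio scaling, with a difference of -1.996 (adjusted p = 0.00519). On day 3 the levels were 39.5, 27.3 and 29.5 FPKM in JNK WT and 8.91, 18.8 and 15.9 FPKM in JNK KO glands, again without overlap (difference -1.18, adjusted p = 0.0557). Such a separation below JNK WT was found for 43.9% of all genes on day 3. Of the 11 tested genes of a glucocorticoid response list, Sgk1 was the only one with all JNK KO libraries below JNK WT (9.09%, against 3.84% of all genes). A difference above 0 was found for 10 of the 11, where 65.7% of all genes had one, and the median was 0.52. Without JNK WT library 1, 6 of the 11 were above 0 and the median was 0.15. In that setting 2 lay below JNK WT in all libraries (18.2%, against 14.4% of all genes). Mt2, a metallothionein of that list, had an unadjusted p under 0.05 in the other direction, at 2.88, 1.86 and 2.41 FPKM in JNK WT and 109, 13.8 and 2.27 FPKM in JNK KO glands, the high value being that of JNK KO library 1.

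Hebp2, a heme-binding protein gene that lies 3.34 Mb from Sgk1 on chromosome 10, was looked up after its values had been seen. It was at 1.44, 0.931 and 0.998 FPKM in JNK WT and at 0.325, 0.352 and 0.326 FPKM in JNK KO glands. The JNK KO libraries lay close together and below all JNK WT libraries, with a difference of -1.47 (standard error 0.31) that was not called (limma adjusted p = 0.810). On day 3 it was at 4.15, 3.31 and 3.76 FPKM against 0.720, 1.23 and 1.46 FPKM, and the difference of -1.68 passed (adjusted p = 0.0183).

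Wfdc18, a small secreted protein with a whey acidic protein core domain, was the member of the milk protein list with the smallest p. Its levels on day 0 were 7069, 3338 and 2915 FPKM in JNK WT and 759, 534 and 1984 FPKM in JNK KO glands. All JNK KO libraries lay below all JNK WT libraries, the library labelled JNK KO 3 nearest to them. The means stood at a ratio of 4.07 and the log2 difference was -2.14 (standard error 0.59, limma adjusted p = 0.810), which did not pass. On day 3 the levels were 2328, 5054 and 9188 FPKM against 903, 1162 and 616 FPKM, a difference of -2.46 that passed (adjusted p = 0.0326).

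**Figure D4:**
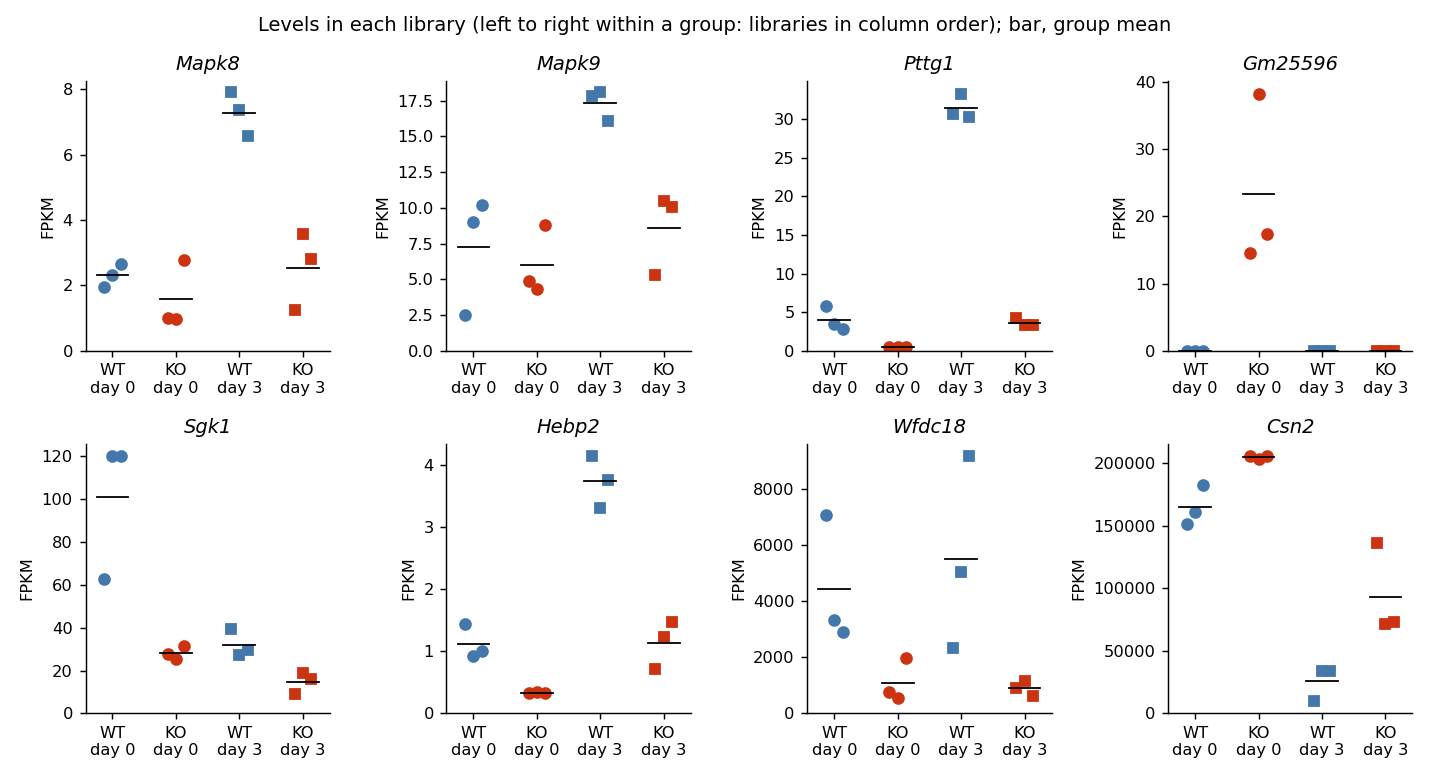
FPKM (y axes from 0) of 8 genes in each of the 12 libraries, circles for day 0 and squares for day 3, blue for JNK WT and red for JNK KO, with a bar at the group mean. Pttg1, Sgk1, Hebp2 and Wfdc18 have every JNK KO library below every JNK WT library on both days, Csn2 has every JNK KO library above, and Mapk8 and Mapk9 overlap on day 0. Of all genes tested, 43.9% lay below in this way on day 3 and 1.65% on both days.

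The remaining milk genes gave no call. Of 15 tested milk protein genes, Wfdc18 alone had an unadjusted p under 0.05, and the median difference of the list was 0.15, near the 0.18 of all genes, and -0.06 without JNK WT library 1, the same as for all genes. Csn2, which encodes beta-casein, was at 151448, 160957 and 183005 FPKM in JNK WT and at 205482, 203107 and 205826 FPKM in JNK KO glands. These groups did not overlap, but the log2 difference was 0.32 (standard error 0.62, limma adjusted p = 0.880), near the median of all genes, and it was -0.01 when libraries were scaled to a total without milk genes and antigen receptor segments. The milk genes held 86.8%, 88.0% and 86.7% of the summed FPKM of models of at least 200 bases in JNK WT glands, against 86.5%, 87.8% and 87.9% with JNK KO. The means differed by 0.223 percentage points (exact permutation p = 1). Of 10 milk fat globule genes, 26 genes of fatty acid and triglyceride synthesis, 12 of lactose synthesis and 14 of calcium, phosphate and zinc transport, only Dgat2, an enzyme of triglyceride synthesis, had an unadjusted p under 0.05, with a difference of 0.81. The medians of these lists were 0.12, 0.59, 0.24 and 0.48, and -0.24, -0.10, -0.12 and -0.22 without JNK WT library 1. Dgat2 was at 1.80, 2.58 and 2.41 FPKM in JNK WT and at 3.22, 3.06 and 6.44 FPKM in JNK KO glands. On day 3 it was instead lower in JNK KO glands, with a difference of -2.01 that passed (limma adjusted p = 0.0166).

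Gm25596 (chromosome 10, 29313166 to 29362442) was listed at 0 in all 3 JNK WT libraries, against 14.6, 38.2 and 17.4 FPKM with JNK KO. No fold is given against a group at 0, and the fitted difference of 7.74 depends on the constant added before the logarithm. All 6 libraries of day 3 were listed at 0 too, so that the gene entered the test only through the group where it is high and its limma adjusted p of 7.37e-07 rests on a spread estimated with 9 libraries at 0. The call is therefore given as a description. Gm11034, looked up after its values had been seen, behaved alike on day 0, with 0 in every JNK WT library against 35.8, 68.9 and 36.0 FPKM with JNK KO (adjusted p = 0.810), while on day 3 it was listed at 0, 53.5 and 0 FPKM against 104, 0 and 164 FPKM. On day 3 the levels of Gm11034 were split within both groups.

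In JNK KO glands all 3 libraries lay below all 3 JNK WT libraries for 557 genes (3.84% of those tested) and above them for 588 genes (4.05%). Beside Sgk1 and Wfdc18, and leaving out models known only by a clone name, the genes with the smallest p that were lower, had a mean of at least 1 FPKM and had no overlap were Tsen15, a subunit of the tRNA splicing endonuclease, Iglv3, an immunoglobulin lambda segment, Cd59a, an inhibitor of the complement membrane attack complex, Serhl, and Ier3, an immediate early gene. Their differences ran from -2.02 for Iglv3 to -0.71 for Serhl. The next 7 were Erdr1, Cda, which encodes cytidine deaminase, Rpl18, H2-Q1, Cryl1, Arl4a and Mad2l1bp. None of these was called, each with an adjusted p of 0.810. Cd59a was at 10.1, 4.82 and 6.53 FPKM in JNK WT and at 3.09, 3.80 and 3.58 FPKM in JNK KO glands, and Ier3 at 11.3, 11.3 and 11.8 against 8.23, 1.51 and 4.85 FPKM.

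The genes that were higher without overlap began with 3 immunoglobulin heavy chain segments. Ighv1-5 was at 0.457, 0.342 and 0 FPKM in JNK WT and at 1.96, 3.36 and 4.97 FPKM in JNK KO glands (difference 3.51, limma adjusted p = 0.616), and Ighv1-18 and Ighv1-22 followed with differences of 1.79 and 2.34. On day 3 Ighv1-18 was lower in JNK KO glands (difference -2.09, adjusted p = 0.0240). Such segments are used by many B cell clones and share sequence with other segments, so that reads can be divided between them. Next came Tnfrsf21, a death domain receptor, C3, the central complement component, Gtf2a1, a general transcription factor, Prol1, Acadl, an acyl-CoA dehydrogenase of fatty acid oxidation, Bcl2l1, Stk11ip, Chd3, a chromatin remodeller, Ptges, prostaglandin E synthase, and Rassf4, with differences from 0.69 for Acadl to 2.58 for C3. None passed. Without JNK WT library 1 the differences of Chd3, Stk11ip and Rassf4 went from 1.63, 1.19 and 1.23 to 0.82, 0.76 and 0.79. Tnfrsf21 was at 0.584, 1.41 and 1.68 FPKM in JNK WT and at 4.61, 2.38 and 2.202 FPKM in JNK KO glands.

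Bcl2l1 encodes BCL-XL, which protects luminal cells from apoptosis. It was at 1.10, 2.77 and 2.43 FPKM in JNK WT and at 4.45, 4.195 and 4.197 FPKM in JNK KO glands. The JNK KO libraries were nearly equal and lay above all JNK WT libraries, with a difference of 1.09 (standard error 0.36, limma adjusted p = 0.810). The lowest level was that of JNK WT library 1, and without it the difference was 0.70. On day 3 the difference was 0.25. Of the 9 BH3-only genes tested, which promote apoptosis, none had an unadjusted p under 0.05, and their differences ran from -0.57 to 0.75 with a median of -0.03, against 0.18 for all genes, and of 0.07 without JNK WT library 1, against -0.06. Hrk was too low to be tested. Bad, the member with the smallest p, was at 11.2, 4.46 and 6.04 FPKM in JNK WT and at 4.49, 4.53 and 4.42 FPKM in JNK KO glands, where the high value was that of JNK WT library 1.

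The highest levels of acute phase genes were those of JNK KO library 1. Of 22 tested genes of the STAT3 and acute phase list, 5 had an unadjusted p under 0.05 and were higher (Saa1, Saa2, Saa3, Orm2 and Lrg1), against 1.65% of all genes, and 1 was lower (Cebpd, a transcription factor of the acute phase). None was called. The median of the list was 0.80 with all libraries, 0.61 without JNK KO library 1, 0.15 without JNK WT library 1 and -0.06 without both. Saa3, a serum amyloid A protein made in the gland, was at 7.01, 4.11 and 3.91 FPKM in JNK WT and at 1436, 53.9 and 4.67 FPKM in JNK KO glands. Saa1 was at 3.61, 7.55 and 10.001 FPKM against 809, 19.7 and 14.6 FPKM, so that its groups did not overlap, but libraries 2 and 3 of JNK KO lay close above JNK WT. C3 was at 1.80, 11.4 and 7.07 FPKM against 102, 12.3 and 26.1 FPKM. Without JNK KO library 1 the number of members at an unadjusted p under 0.05 that were higher fell from 5 to 1, and without JNK WT library 1 it was also 1. On day 3, Saa3 was at 40.8, 78.6 and 73.4 FPKM in JNK WT and at 3217, 3221 and 5283 FPKM in JNK KO glands, a difference of 5.94 that passed (adjusted p = 0.0320).

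Ribosomal protein genes followed JNK WT library 1 in part. Of 31 tested, 3 had a difference above 0, 8 had all JNK KO libraries below all JNK WT libraries (25.8%, against 3.84% of all genes), and 3 had an unadjusted p under 0.05 (Rpl18, Rpl3 and Rpl5, the latter pair at -0.62 and -0.71, or -0.38 and -0.36 without JNK WT library 1). None was called, and the median was -0.52. Their sum was 8441 FPKM in JNK WT library 1, 3292 and 4078 FPKM in JNK WT libraries 2 and 3, and 3715, 3858 and 2975 FPKM in JNK KO glands. Without JNK WT library 1 the median was -0.09 beside -0.06 for all genes, and 10 of the 31 were above 0, while 9 lay below JNK WT in all libraries (29.0%, against 14.4% of all genes). Without JNK WT library 1 and the library labelled JNK KO 3 the median was 0.02. Rpl18 was at 155, 117 and 111 FPKM in JNK WT and at 75.7, 85.5 and 73.5 FPKM in JNK KO glands (difference -0.69, limma adjusted p = 0.810), without overlap, and on day 3 its difference was 0.18. The 23 genes of the respiratory chain had a median of -0.30 and no member with an unadjusted p under 0.05, and without JNK WT library 1 the median was -0.13.

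Among TGF-beta and SMAD genes, all 19 tested had a difference above 0, where 65.7% of all genes did, with a median of 0.43. Tgfb2, Tgfb3 and Smad6, which encode ligands and an inhibitor of the pathway, had an unadjusted p under 0.05 and none was called. Tgfb2 was at 0.0385, 0.477 and 0.587 FPKM in JNK WT and at 2.05, 0.805 and 0.737 FPKM in JNK KO glands. Its lowest level was that of JNK WT library 1, and its difference went from 1.63 to 0.90 without it, as that of Tgfb3 went from 0.84 to 0.45. Without that library 6 of the 19 were above 0 and the median of the list was -0.09. The direction of this list thus changed when a single library was left out.

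AP1 factors and the JNK pathway gave no call on day 0. Of 12 tested AP1-related genes none had an unadjusted p under 0.05, the differences ran from -0.49 to 0.69, and the median was 0.16. Without JNK WT library 1 the median was -0.11. Fosl1 and Atf7 were too low to be tested. Only Atf4, a regulator of amino acid synthesis, had groups that did not overlap, 1 of 12 where 3.84% of all genes were below and 4.05% above, at 45.7, 42.8 and 45.2 FPKM in JNK WT and at 40.7, 35.1 and 39.5 FPKM in JNK KO glands (difference -0.22). Jun was at 1.13, 1.43 and 1.997 FPKM in JNK WT and at 0.753, 0.700 and 2.006 FPKM in JNK KO glands. As with Mapk8, libraries 1 and 2 of JNK KO lay below all JNK WT libraries and the library labelled JNK KO 3 did not. In the JNK pathway list, 14 genes tested, Map3k1, an upstream kinase, and Dusp1, a phosphatase that inactivates JNK, had an unadjusted p under 0.05 (3.10% of all genes did) with differences of 1.61 and -0.78, or 0.59 and -0.48 without JNK WT library 1. Map3k1 was at 0.301, 2.35 and 4.49 FPKM in JNK WT and at 9.69, 4.23 and 2.96 FPKM in JNK KO glands, the groups overlapped, and the lowest level was that of JNK WT library 1. The list median was 0.36, or -0.07 without that library. Dusp1 was at 2.99, 1.21 and 2.02 FPKM in JNK WT and at 1.01, 0.871 and 1.49 FPKM in JNK KO glands, and the groups overlapped.

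Genes of tissue remodelling were likewise uncalled. Of 15 tested Mmp and Timp genes, Timp1, an inhibitor of matrix metalloproteinases, had an unadjusted p under 0.05, at 13.6, 8.18 and 7.80 FPKM in JNK WT and 6.64, 4.41 and 6.24 FPKM in JNK KO glands (difference -0.74). Mmp7, Mmp8, Mmp10, Mmp16, Mmp17 and Mmp24 were too low to be tested, and the differences of the rest ran from -0.74 to 1.03 with a median of 0.30, or 0.14 without JNK WT library 1, where Timp1 was at -0.49. Of 11 tested cathepsins it was Ctsc, at 21.8, 33.8 and 40.2 FPKM against 70.3, 60.0 and 41.2 FPKM (difference 0.85). Neither pair of groups overlapped. Ctsb and Ctsl, lysosomal cysteine proteases, were at 52.4 to 81.9 and 31.6 to 45.8 FPKM in JNK WT and at 60.7 to 74.7 and 40.7 to 51.9 FPKM in JNK KO glands, and their ranges overlapped.

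Beside Pttg1, the list of securin, separase and mitosis genes held no further call. Of its 22 tested members no other had an unadjusted p under 0.05, and the median was 0.13. Without JNK WT library 1 that median was -0.26. The 14 DNA replication genes had a median of 0.28, or -0.02 without that library, and no member with an unadjusted p under 0.05. Trib3 (integrated stress response), Perp (p53 target) and Gstt2 (glutathione transferase) were lower at an unadjusted p under 0.05 without overlap, and Nr4a1 (immediate early nuclear receptor) and Gstm2 (glutathione transferase) were higher without overlap. Trib3 was at 8.21, 11.5 and 13.2 FPKM in JNK WT and at 5.68, 4.09 and 8.19 FPKM in JNK KO glands, the ranges meeting at 8.19 and 8.21. On day 3 Nr4a1 and Gstm2 were instead lower in JNK KO glands, at -2.28 and -1.35 (limma adjusted p = 0.0300 and 0.0166). The day 3 differences of Trib3, Perp and Gstt2 were -0.00073, -0.28 and -1.07 and did not pass. On day 0, none of the 24 interferon-stimulated, 16 circadian clock, 18 cholesterol synthesis and 13 heat shock genes tested had an unadjusted p under 0.05. The medians of these lists were -0.03, 0.48, 0.19 and 0.18, and -0.21, -0.09, -0.26 and -0.29 without JNK WT library 1. The cell type markers gave no call either. The 10 luminal markers had a median of -0.01, and 1 lay below JNK WT in all libraries (10%, against 3.84% of all genes). Without JNK WT library 1 the median was -0.41, beside -0.06 for all genes, and 4 lay below (40%, against 14.4%). Without both libraries 1 it was -0.52, beside -0.09 for all genes, and 7 lay below (70%, against 23.8%). The 13 skeletal muscle markers all had a difference above 0, with a median of 1.21, but no member had an unadjusted p under 0.05. The median was 0.14 without the library labelled JNK KO 3, where 9 of the 13 were above 0, and 2.59 without JNK WT library 1, 2.61 without JNK KO library 1 and 4.02 without both libraries 1.

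The day 3 libraries were set beside day 0. Of the 557 genes with all JNK KO libraries below JNK WT on day 0, 239 (42.9%) were also below on day 3, where 43.9% of all genes were. Of the 588 genes above on day 0, 20 (3.40%) were also above on day 3, against 2.81% of all genes. The shares are near those of all genes. Single genes that passed on day 3 and lay apart in the same direction on day 0 included, beside Pttg1, Wfdc18 and Hebp2, the lower genes Arl4a, Crem, a regulator of cAMP-responsive transcription, and Bbox1, the last enzyme of carnitine synthesis, and the higher gene Prol1. Bbox1 was at 4.66, 5.45 and 4.09 FPKM in JNK WT and at 2.28, 2.53 and 2.76 FPKM in JNK KO glands on day 0 (difference -0.88, limma adjusted p = 0.810), with a difference of -1.78 on day 3 (adjusted p = 0.0175). Prol1 was at 1.27, 1.31 and 1.32 FPKM against 6.89, 4.35 and 1.996 FPKM (difference 1.52), and its difference on day 3 was 3.33 (adjusted p = 0.00986). On day 3, 894 genes were called (6.16%), 815 lower (5.62%) and 79 higher (0.544%), against 2 on day 0. The median difference over all genes was -0.48 on day 3, against 0.18 on day 0. Milk genes held 10.3% to 22.5% of the summed FPKM of models of at least 200 bases in JNK WT glands of day 3. In JNK KO glands of day 3 they held 37.7% to 60.5%. What these shifts add to the counts was not tested.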

How the data were processed

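RNA from whole mammary glands that had passed the study's check of integrity was sequenced as paired reads of 40 bases. Trimming was done by the authors with Trimmomatic and alignment to GRCm38 with Bowtie2 and TopHat2 2.0.14, and they deposited FPKM values made with Cufflinks 2.2.1, scaled to the total of each library, for 37756 gene models. Of these, 2 held no FPKM, 24 had a symbol turned into a date, 466 combined several symbols, and 34213 (90.6%) were matched to GENCODE M21. The deposited table holds 0 library columns that could not be mapped to a group, and its columns of the study's own comparison (Cuffdiff p-values and q-values between days in wild type) were not used. Columns carry the group but are not tied to a sample number, so the libraries stand as replicates without pairing. FPKM give no counts, and the depth per library is unknown.

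Genes were kept if 3 or more of 12 libraries reached 0.5 FPKM, and were fitted as log2(FPKM + 0.1) with limma 3.58.1 (R 4.3.3), with a term for each of the 4 groups, a variance trend and Benjamini-Hochberg adjustment. All 12 libraries shared 1 estimate of the spread (8 residual and 4.03 prior degrees of freedom). Single values were compared by exact two-sided permutation tests. The labels do not tie a library to a dam, and p-values measure the spread among these libraries. The fit was tested on simulated data and made 5 false calls among 14512 genes. Milk shares were summed over models of at least 200 bases. Promoter windows came from RefSeq (GRCm38.p6), where all 4 genes looked up were matched.

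Genes were named by rule, namely called genes, the next genes by p without overlap up to 15 in each direction, the 2 members of each list and the 6 genes near each floxed locus with the smallest p, the targeted genes, and the AP1, BH3-only, Mmp and Timp genes. Fasn, Polr2a, Hebp2, Gm11034, Crem and Bbox1 were named after their values had been seen. Elf5 was named for its high level among the luminal markers. A gene that the rule names is not reported here. The members and lists were chosen with earlier results of these data known. Alternatives were other constants before the logarithm, filters, scalings, variance models, library weights, libraries left out, a block on the column number and other window widths.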

Additional observations from a re-analysis of the deposited data

Results flagged for a closer look

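Gm25596 and Gm13381 were the 2 genes (0.0138% of 14512) whose difference between genotypes differed between the days by the test of the difference itself, the interaction term of the limma fit. For Gm25596 the day 3 difference minus that of day 0 was -7.74 on the log2 scale (adjusted p = 4.15e-05), which only restates the day 0 difference, since every day 3 library was at 0 and the gene passed the filter through JNK KO on day 0 alone. It was listed at 14.6, 38.2 and 17.4 FPKM with JNK KO on day 0 and at 0 in every other library. Gm13381, an antisense gene model, had a value of 3.85 (adjusted p = 0.0166). It was at 5.19, 4.61 and 5.69 FPKM in JNK WT and 2.87, 3.57 and 4.53 FPKM in JNK KO glands on day 0, where JNK KO was lower in 3 of 3 libraries. On day 3 it was at 0.606, 0.238 and 0.297 FPKM in JNK WT and at 4.90, 5.30 and 3.57 FPKM in JNK KO glands. Whether the counting used strand is not given in the sources used here, so reads of an antisense model and its partner may not be told apart.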

How the results depend on the processing

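Pttg1 was called in each of the 6 fits that left out 1 day 0 library and in both fits that left out a pair of libraries. The pair of JNK WT and JNK KO libraries 1 had been chosen after seeing the data. Gm25596 was called in the same fits, which adds no support. It was at 0 in every library outside JNK KO on day 0 and entered the test through that group alone. Under the stricter threshold those single omissions gave 1 to 2 genes, and 1 gene passed with a constant of 1 and with a total without milk genes and segments. The call within 10 Mb of a floxed locus was 0 under median ratio scaling, 75th percentile scaling, day 0 libraries alone and a window of 5 Mb. Genes at an unadjusted p under 0.05 numbered 450, and 240 with a constant of 1, 940 under median ratio scaling, 930 under 75th percentile scaling, 1299 with the total without milk genes and segments, 278 with day 0 libraries alone, 222 with library weights and 321 to 1777 with single libraries left out, highest without JNK WT library 3. The Mapk9 difference ran from -0.74 without JNK WT library 1 to 0.26 without JNK WT library 3, and was 0.17 without JNK WT library 2, 0.01 without JNK KO library 1 and 0.09 without JNK KO library 2. Mapk8 ran from -1.15 to -0.44. The milk share difference was -7.98 percentage points over all models, where antigen receptor segments are counted (exact permutation p = 0.2), and ran from -0.0264 without JNK KO library 3 to 0.663 with single libraries left out, being -0.00403 without JNK WT library 3. The Csn2 log2 difference was -0.00639 with the total without milk genes and segments. The causes of these shifts were not tested. With the column number as a replicate block, 1 gene was called (Gm11034), 0 passed the stricter threshold, 0 lay within 10 Mb and 209 had an unadjusted p under 0.05. The deviations of same-numbered libraries had r of -0.0659, -0.0969 and -0.169, and the other pairings ran from -0.0754 to 0.165. With 3 libraries per group these values cannot tell whether libraries of the same number were handled together. FPKM carry no depth, so that low genes cannot be given a counting error.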
